A study of Mus musculus with 6 samples.

Results

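The iron uptake and storage genes are 10 genes chosen by name for what they do in iron handling: transferrin (Trf), its receptor (Tfrc), a ferrireductase (Steap3), the iron transporters of entry and exit (Slc11a2 and Slc40a1), the ferritin subunits (Fth1 and Ftl1), a heme-degrading enzyme (Hmox1) and the iron regulatory proteins (Aco1 and Ireb2). They are 10 of the 53390 genes to which transcripts of the GENCODE M21 annotation were summed, and all 10 passed the filter on low counts that left 18177 genes for testing. RNA was measured by poly(A)-selected, stranded sequencing in mouse embryonic stem cells (mESCs) of the TKO line, in which Dnmt1, Dnmt3a and Dnmt3b are inactivated in every sample, so no sample with intact methyltransferases entered any comparison. TKO-serum cells (3 libraries) grew in high-glucose DMEM with 15% fetal calf serum and LIF at 500 U/ml. TKO-2i cells (3 libraries) grew for 14 days in serum-free N2B27 to which were added 1000 U/ml of LIF, 1 µM of PD0325901 (which inhibits MEK) and 3 µM of CHIR99021 (which inhibits GSK3). Base medium, serum, LIF dose and both inhibitors changed together, and their effects cannot be told apart. Both fetal calf serum and the N2 and B27 supplements contain transferrin, and no iron was measured. The labels call the libraries biological replicates of a single line, without saying that they came from separate cultures, so p-values measure the spread between these samples. Total estimated counts were 46228700, 44180642 and 43896549 in TKO-2i replicates 1, 2 and 3 and 38274042, 51932739 and 44827609 in TKO-serum replicates 1, 2 and 3.

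Cells take up most of their iron as ferric iron bound to transferrin, which enters endosomes with the transferrin receptor, is reduced there by Steap3 and crosses the membrane through Slc11a2 (DMT1). Iron that is not used is stored in shells built of the ferritin heavy and light chains or leaves the cell through ferroportin, the product of Slc40a1, and heme is opened by heme oxygenase to release its iron. When iron is scarce, the iron regulatory proteins IRP1 (Aco1) and IRP2 (Ireb2) bind hairpins called iron-responsive elements, which holds back translation of ferritin and ferroportin messages and protects the transferrin receptor message from decay. Cultured cells of many kinds, stem cells among them, depend on this route for growth.

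TKO-2i replicate 2 stood apart from the other TKO-2i libraries. Its counts differed from those of TKO-2i replicates 1 and 3 by a chi-square per gene of 48.1 and 29.3, against 7.51 between replicates 1 and 3 and at most 16.4 among the TKO-serum libraries. Mitochondrial transcripts held 5.01% of its TPM (a level corrected for the length of each transcript and for library size), against 3.61% to 3.91% in the other 5 libraries. Calls among the 10 genes that change without it are given with and without it.

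The deletion could not be checked from gene totals, since transcripts were still counted at all 3 inactivated loci and no other line was at hand. Dnmt1 had 29.1, 34.6 and 29.3 TPM in TKO-2i and 25.7, 28.6 and 27.9 TPM in TKO-serum. Dnmt3a had 4.31, 5.19 and 4.54 TPM in TKO-2i and 21.3, 23.02 and 22.8 TPM in TKO-serum, and Dnmt3b had 6.71, 9.53 and 8.49 TPM in TKO-2i and 18.8, 20.9 and 20.7 TPM in TKO-serum. All 3 genes kept their TKO-2i and TKO-serum values apart.

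Most of the 10 genes were lower in 2i. With edgeR's quasi-likelihood test and an adjusted p under 0.05, 8 of the 10 were called, 7 of them lower and 1, Aco1, higher in TKO-2i. Over all genes tested, 62.5% were called, 30.6% lower and 31.9% higher. At a fall of at least 2-fold, 3 of the 10 genes (Trf, Steap3 and Slc40a1) were called, and 15.6% of all genes tested were. Their median log2 fold change was -0.46, beside 0.01 over all genes tested. In 7 of the 10 genes no TPM value of one culture reached into those of the other, and the same held for 11355 genes (62.5%) of those tested. The exceptions were Slc11a2, Ftl1 and Ireb2. Libraries of whole cultures cannot tell fewer cells that express a gene from less of its RNA in each cell.

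**Figure D1:**
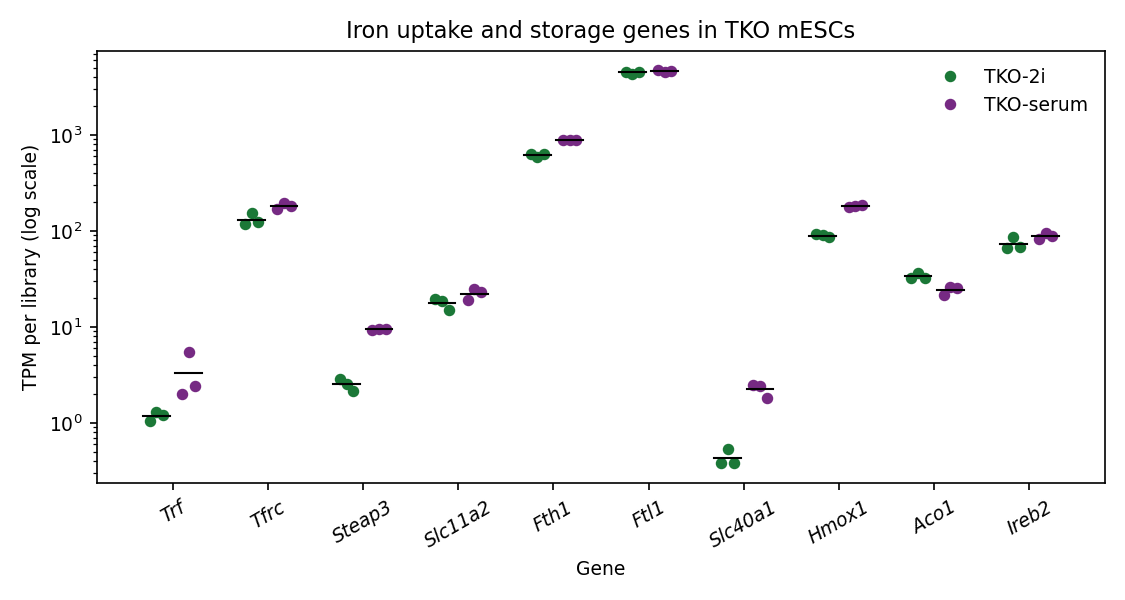
TPM (log scale) of each of the 10 genes in each library, with TKO-2i in green, TKO-serum in purple and the mean of 3 libraries as a black line. Ftl1 lies between 4377 and 4727 TPM in the 6 libraries, and Slc40a1 lies under 1 TPM in TKO-2i and above it in TKO-serum.

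The route into the cell begins with transferrin and its receptor. Tfrc, the transferrin receptor (ENSMUSG00000022797; GRCm38 chr16:32608920-32632794, plus strand), had 119, 153 and 123 TPM in TKO-2i replicates 1, 2 and 3 and 168, 198 and 182 TPM in TKO-serum replicates 1, 2 and 3. Every TKO-2i library was below every TKO-serum library, and TKO-2i replicate 2 came closest to them. The fall was a log2 fold change of -0.49 (SE 0.09, edgeR adjusted p = 0.0017), or 1.41-fold. Tfr2, the second transferrin receptor, which cells of the liver and the erythroid lineage use, had 0.0994, 0.711 and 0.105 TPM in TKO-2i and 1.04, 0.976 and 1.31 TPM in TKO-serum, with TKO-2i replicate 2 the nearest to serum. It was lower in TKO-2i as well (log2 fold change -2.07, SE 0.27, edgeR adjusted p = 0.00022), at a level so far below Tfrc that the sum of both receptors followed Tfrc, with 132 ± 18.8 TPM in TKO-2i and 184 ± 14.8 TPM in TKO-serum (SD, n = 3).

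Trf, which encodes transferrin itself (ENSMUSG00000032554; chr9:103204001-103230444, minus strand), had 1.06, 1.31 and 1.21 TPM in TKO-2i and 2.00, 5.43 and 2.45 TPM in TKO-serum. The cultures did not overlap, and TKO-serum replicate 2 stood well above the other TKO-serum libraries. In that library 3.03 of the 5.43 TPM lay on Trf-209, a retained-intron transcript of 433 bases that was at 0 in the other 5 libraries. By estimated counts, which do not weight short transcripts, the libraries held 89, 97 and 85 counts in TKO-2i and 166, 276 and 201 in TKO-serum. On these counts Trf had a log2 fold change of -1.17 (SE 0.12, edgeR adjusted p = 5.3e-05). Lactotransferrin (Ltf) stayed at or under 0.0440 TPM in all 6 libraries and was not tested. Melanotransferrin (Meltf), a membrane-bound relative of transferrin, was at or under 0.409 TPM in all 6, with a log2 fold change of 0.76 (SE 0.22, edgeR adjusted p = 0.014) that did not pass with limma on log2(TPM + 1) (adjusted p = 0.086) or without TKO-serum replicate 2 (adjusted p = 0.064).

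Steap3, which reduces ferric iron in the endosome (ENSMUSG00000026389; chr1:120190757-120272705, minus strand), had 2.88, 2.53 and 2.16 TPM in TKO-2i and 9.36, 9.47 and 9.60 TPM in TKO-serum. All TKO-serum libraries were more than 3 times as high as any TKO-2i library, and the TKO-serum values lay close together. Steap3 fell with a log2 fold change of -1.80 (SE 0.12, edgeR adjusted p = 3.8e-06), or 3.48-fold lower in 2i. The other metalloreductases of the family did not share one direction. Steap1 had a log2 fold change of -0.35 (SE 0.10, edgeR adjusted p = 0.011), with 6.62 ± 0.702 TPM in TKO-2i and 8.97 ± 0.455 TPM in TKO-serum (SD, n = 3). Steap2 was higher in TKO-2i, at 5.07 ± 0.720 against 4.22 ± 0.322 TPM (SD, n = 3; log2 fold change 0.38, SE 0.08, edgeR adjusted p = 0.0040), a call that was lost with limma on log2(TPM + 1) (adjusted p = 0.15). Steap4 was at 0 counts in every TKO-2i library and at 69 counts over the TKO-serum libraries, which is at least 21.9-fold lower in 2i when libraries are scaled by TMM and 3 counts are allowed over the group. Summed over the 4 Steap genes, the level was 14.3, 15.8 and 12.6 TPM in TKO-2i and 22.5, 22.7 and 23.6 TPM in TKO-serum. Steap1 was the most abundant of the family in 2i, and Steap3 and Steap1 lay close together at the top in serum.

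Slc11a2, the transporter that carries ferrous iron out of the endosome (ENSMUSG00000023030; chr15:100387898-100425072, minus strand), had 19.4, 18.6 and 14.9 TPM in TKO-2i and 19.2, 24.8 and 22.9 TPM in TKO-serum. TKO-2i replicate 1 lay just above TKO-serum replicate 1, so the cultures overlapped by TPM. On counts, Slc11a2 had a log2 fold change of -0.34 (SE 0.05, edgeR adjusted p = 0.00030). That call did not pass on counts from length-scaled TPM (log2 fold change -0.24, adjusted p = 0.070) or with limma on log2(TPM + 1) (log2 fold change -0.32, adjusted p = 0.063), and its adjusted p lay between 3.0e-07 and 0.070 over 15 alternatives.

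Storage genes were far more abundant than genes of uptake, and 1 of the 2 ferritin subunits was called. Fth1, the heavy chain with the ferroxidase activity of ferritin (ENSMUSG00000024661; chr19:9980598-9985098, plus strand), had 635, 587 and 640.3 TPM in TKO-2i and 891, 879.6 and 898.5 TPM in TKO-serum. The highest TKO-2i library stayed well below the lowest TKO-serum library. Fth1 fell with a log2 fold change of -0.42 (SE 0.09, edgeR adjusted p = 0.0027), or 1.34-fold lower in 2i. Ftl1, the light chain, which favours the growth of the iron core (ENSMUSG00000050708; chr7:45457944-45459884, minus strand), had 4603, 4377 and 4516 TPM in TKO-2i and 4727, 4521 and 4653 TPM in TKO-serum. These ranges overlapped, and within each culture replicate 1 was the highest. Ftl1 had a log2 fold change of 0.08 (SE 0.08, edgeR adjusted p = 0.44), and its sign depended on the scale, at -0.04 with limma on log2(TPM + 1) (adjusted p = 0.48). Without TKO-2i replicate 2 it was 0.17 (edgeR adjusted p = 0.0092), a call for a rise in 2i that no other of 16 alternatives made.

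The part of the heavy chain in the ferritin message is described by its values, since a test of 3 against 3 libraries could not give a p under 0.05. Fth1 held 12.1%, 11.8% and 12.4% of the summed TPM of Fth1 and Ftl1 in TKO-2i and 15.9%, 16.3% and 16.2% in TKO-serum. The shares of the cultures lay about 4 points apart (-3.99 points) and did not overlap, with an SD of 0.298 and 0.223 points (n = 3). The exact two-sided permutation test gave p = 0.1, the smallest that 3 against 3 libraries can give, and 0.125 after Benjamini-Hochberg adjustment over 5 shares tested. Ferritin genes have near-identical processed copies among which reads may be divided. Adding the annotated pseudogenes left the difference at -4.03 points. Among them Ftl1-ps1, which was singled out after its values were seen, held 31.8, 32.2 and 32.7 TPM in TKO-2i and 14.7, 15.9 and 15.3 TPM in TKO-serum, which is small beside Ftl1.

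Ferritin heavy chain relatives encoded on the X chromosome, the Fthl17 genes, are expressed in early embryonic and germ cells and were present at low levels. Their 6 genes summed to 28.2, 25.8 and 24.6 TPM in TKO-2i and 22.5, 22.5 and 21.4 TPM in TKO-serum, most of it from Fthl17c. Fthl17c (log2 fold change 0.35, SE 0.09, edgeR adjusted p = 0.0079), Fthl17d (0.67, SE 0.19, adjusted p = 0.015) and Fthl17e (0.94, SE 0.23, adjusted p = 0.0066) were higher in TKO-2i. The call of Fthl17d did not pass without TKO-2i replicate 1 (adjusted p = 0.051) or without TKO-serum replicate 3 (adjusted p = 0.056). Fthl17a was lower in TKO-2i (-1.48, SE 0.41, adjusted p = 0.013; -2.13 without TKO-2i replicate 1, -0.53 with limma on log2(TPM + 1)) at under 1 TPM in all 6 libraries, Fthl17f had a log2 fold change of -0.37 (SE 0.24, adjusted p = 0.21; -0.62 without TKO-2i replicate 1, adjusted p = 0.057; -0.15 without TKO-2i replicate 2, adjusted p = 0.57), which passed with limma on log2(TPM + 1) only (-0.30, adjusted p = 0.047), and Fthl17b was not tested. The copies are similar in sequence, so the split of reads among them is uncertain. Mitochondrial ferritin (Ftmt) was at 0 in all 6 libraries.

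The gene of iron export had the largest log2 fold change of the 10 by edgeR. Slc40a1, which encodes ferroportin, the exporter of iron from cells (ENSMUSG00000025993; chr1:45908068-45926523, minus strand), had 0.378, 0.530 and 0.379 TPM in TKO-2i and 2.49, 2.41 and 1.81 TPM in TKO-serum. No TKO-2i library came near the TKO-serum libraries, although the gene had the lowest mean TPM of the 10 in both cultures. These levels rested on 24, 25 and 34 counts in TKO-2i and 118, 183 and 126 counts in TKO-serum. Ferroportin message fell with a log2 fold change of -2.28 (SE 0.19, edgeR adjusted p = 1.3e-05), or 4.86-fold lower in 2i. It was -1.17 with limma on log2(TPM + 1), where the added 1 is large beside these levels and shrinks the change, and there Steap3, at -1.58, changed more. The multicopper oxidases that oxidise exported iron were nearly absent. Hephaestin (Heph) was at or under 0.139 TPM in all 6 libraries with a log2 fold change of -0.66 (SE 0.34, edgeR adjusted p = 0.12), which was -0.40 without TKO-serum replicate 1, -0.31 on counts from length-scaled TPM and -0.03 with limma on log2(TPM + 1). Ceruloplasmin (Cp) and Hephl1 did not pass the filter and stayed at or under 0.134 TPM.

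Hmox1, the inducible heme oxygenase, which releases iron from heme (ENSMUSG00000005413; chr8:75093621-75100589, plus strand), had 92.2, 90.4 and 86.7 TPM in TKO-2i and 178, 183 and 186.0 TPM in TKO-serum. The TKO-serum libraries lay close together at about 2 times the TKO-2i level. The log2 fold change was -0.91 (SE 0.08, edgeR adjusted p = 1.4e-05), or 1.88-fold lower in 2i. Hmox2, the constitutive enzyme, had 32.7, 30.8 and 30.6 TPM in TKO-2i and 29.0, 29.8 and 29.0 TPM in TKO-serum. Its log2 fold change of 0.23 (SE 0.08, edgeR adjusted p = 0.033) was called in 5 of 15 alternatives only, and the adjusted p reached 0.19. Bach1, a repressor of Hmox1 that heme inactivates, had 15.5, 20.2 and 14.3 TPM in TKO-2i and 7.74, 8.44 and 8.15 TPM in TKO-serum. It was higher in every TKO-2i library (log2 fold change 1.13, SE 0.08, edgeR adjusted p = 4.8e-06), opposite to Hmox1.

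Of the iron regulatory proteins, Aco1 was called and Ireb2 was not. Aco1, which encodes cytosolic aconitase and, without its iron-sulfur cluster, IRP1 (ENSMUSG00000028405; chr4:40143081-40198338, plus strand), had 32.5, 36.7 and 32.7 TPM in TKO-2i and 21.6, 26.3 and 25.5 TPM in TKO-serum. All TKO-2i libraries were above all TKO-serum libraries, which held for no other of the 10 genes. The log2 fold change was 0.57 (SE 0.05, edgeR adjusted p = 2.5e-05), or 1.48-fold higher in 2i. Ireb2, which encodes IRP2, the form that is degraded when iron is plentiful (ENSMUSG00000032293; chr9:54863789-54912530, plus strand), had 67.0, 85.9 and 67.5 TPM in TKO-2i and 82.99, 94.6 and 88.4 TPM in TKO-serum. TKO-2i replicate 2 lay among the TKO-serum libraries, and the other TKO-2i libraries were below them. The log2 fold change of -0.20 (SE 0.10, edgeR adjusted p = 0.098) did not pass. Ireb2 passed in 5 of 15 alternatives, over which the adjusted p lay between 0.0010 and 0.27. It passed without TKO-2i replicate 2 (-0.31, edgeR adjusted p = 0.0010) and with DESeq2 (-0.22, adjusted p = 0.047). The other passes, by edgeR, were with a replicate block (-0.21, adjusted p = 0.0033), without a filter (-0.22, 0.043) and on counts from length-scaled TPM (-0.18, 0.031). Whether Aco1 and Ireb2 differ in their change was not tested.

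**Figure D2:**
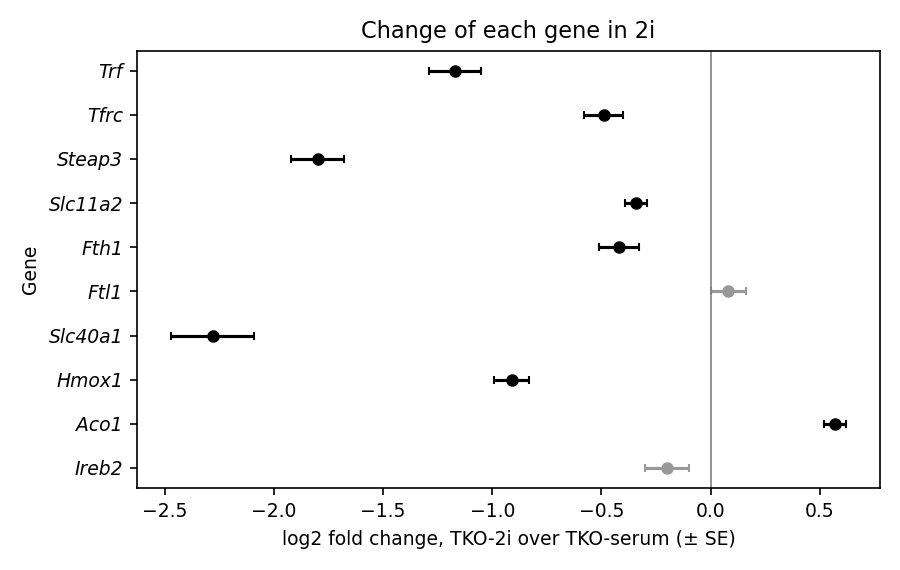
log2 fold change of each of the 10 genes between TKO-2i and TKO-serum from edgeR, with bars of 1 SE, black where the adjusted p was under 0.05 and grey where it was not. Slc40a1 (-2.28) and Steap3 (-1.80) lie farthest to the left, Aco1 (0.57) is the called gene to the right of 0, and Ftl1 and Ireb2 are grey.

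The order of the levels was nearly the same in both cultures. In TKO-2i, mean TPM ran from Ftl1 (4499 ± 114) through Fth1 (620.6 ± 29.4), Tfrc (131 ± 18.4), Hmox1 (89.8 ± 2.82), Ireb2 (73.5 ± 10.8), Aco1 (33.9 ± 2.38), Slc11a2 (17.6 ± 2.39), Steap3 (2.52 ± 0.358) and Trf (1.19 ± 0.127) to Slc40a1 (0.429 ± 0.0873; SD, n = 3 for each). No neighbours in this order overlapped over their 3 libraries. In TKO-serum the order of the genes was the same, from Ftl1 (4634 ± 104) and Fth1 (889.7 ± 9.50) to Trf (3.29 ± 1.86) and Slc40a1 (2.23 ± 0.373; SD, n = 3 for each). There the values of Tfrc (183 ± 14.8 TPM) and Hmox1 (182 ± 3.92 TPM) overlapped, as did those of Trf and Slc40a1, and neither gene of these pairs was the higher in every library. The values of Aco1 (24.5 ± 2.52 TPM) and Slc11a2 (22.3 ± 2.88 TPM) overlapped as well, although Aco1 was the higher within each library. The 10 genes together held 5572, 5352 and 5484 TPM in TKO-2i and 6102, 5945 and 6070 TPM in TKO-serum, mostly from Ftl1.

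Shares of transcripts within a gene need no scaling between libraries, and an exact test of 3 against 3 libraries cannot give a p under 0.05, so they are described by their values. Of the 8 annotated Slc11a2 transcripts, Slc11a2-205 (4415 bases) carries the 3′ end with the iron-responsive element and Slc11a2-201 (3025 bases) ends without it. Slc11a2-205 held 66.5%, 69.5% and 72.4% of the TPM of this pair in TKO-2i and 79.4%, 82.4% and 78.1% in TKO-serum. The share was lower in every TKO-2i library, by 10.5 points between the means of 69.5% ± 2.94 and 80.0% ± 2.21 (SD, n = 3; exact two-sided permutation p = 0.1, 0.125 adjusted over 5 shares). Of the TPM of the whole gene, Slc11a2-205 held 44.3%, 55.3% and 60% in TKO-2i and 67.7%, 60.2% and 59.9% in TKO-serum, and the cultures overlapped. Short fragments of Slc11a2 took part of the TPM as well, among them Slc11a2-204 (393 bases) with 31.1%, 13.2% and 0% of the gene in TKO-2i and 14.7%, 20.5% and 8.63% in TKO-serum. They varied between libraries of one culture by more than between cultures.

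Steap3-202, the main Steap3 transcript, held 94.9%, 97.7% and 99.1% of the gene's TPM in TKO-2i and 89.3%, 88.8% and 81.4% in TKO-serum (exact two-sided permutation p = 0.1, 0.125 adjusted over 5 shares). The difference lay mostly in Steap3-204, a protein-coding transcript of 2873 bases that was singled out after its values were seen, with 1.38%, 1.93% and 0% in TKO-2i and 10.1%, 10.3% and 16.9% in TKO-serum. Hmox1-201 held nearly all of Hmox1 in both cultures, at 98.5% ± 0.644 in TKO-2i and 97.5% ± 0.346 in TKO-serum (SD, n = 3; exact two-sided permutation p = 0.1, 0.125 adjusted). The share of Trf-201 in Trf ranged from 51.0% to 77.5% in TKO-2i and from 43.0% to 100% in TKO-serum (exact two-sided permutation p = 0.8), on few counts. Among other transcripts with at least 5% of their gene, all given without a test, the coding transcript Tfrc-201 held 75.1%, 70.6% and 66.0% of Tfrc in TKO-2i and 82.9%, 78.9% and 76.7% in TKO-serum. The retained-intron transcripts Tfrc-204 and Tfrc-205 held 17.9% ± 3.62 and 6.12% ± 0.970 in TKO-2i and 14.1% ± 1.83 and 2.11% ± 0.0665 in TKO-serum (SD, n = 3). A single transcript held at least 91.4% of the TPM of Fth1, Ftl1, Aco1 and Ireb2 in every library. For Slc40a1 the shares rested on too few counts to describe: Slc40a1-201 ranged from 43.7% to 100% in TKO-2i.

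**Figure D3:**
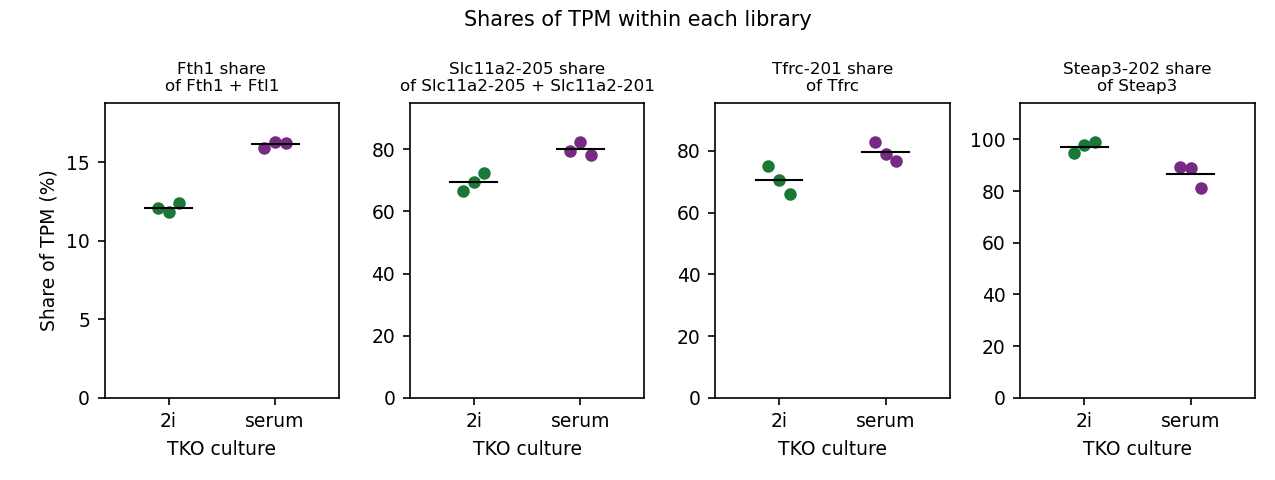
Share of TPM (%) in each library of TKO-2i (green) and TKO-serum (purple) for Fth1 within ferritin, Slc11a2-205 beside Slc11a2-201, Tfrc-201 within Tfrc and Steap3-202 within Steap3, with the mean of 3 libraries as a black line and each axis starting at 0. The first 3 shares are lower and the last is higher in every TKO-2i library.

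Iron-responsive elements are the feature by which IRP1 and IRP2 recognise messages, and the elements found in the 10 genes are shown because they tell which of the messages carry one and at which end. Transcripts of GENCODE M21 were searched on their own strand for an unpaired C, 5 bases, the loop letters CAGTGN and 5 bases that pair with the first 5, with G:T pairs allowed. Of the genes tested, 322 (1.77%) held such letters somewhere in a transcript. Among the 10 genes, 4 did, at 7 sites, and Slc11a2 matched with 1 unpaired base in the stem, a looser form found in 687 (3.78%) of the genes tested. A match is a description of letters and was not measured as a bound site. The sites (GRCm38) are given 5′ to 3′ as DNA with the loop in capitals.
Fth1, 5′ UTR, chr19:9982731-9982760, plus strand: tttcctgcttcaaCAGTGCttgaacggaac
Ftl1, 5′ UTR, chr7:45459779-45459808, minus strand: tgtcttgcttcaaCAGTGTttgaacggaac
Slc40a1, 5′ UTR, chr1:45925465-45925494, minus strand: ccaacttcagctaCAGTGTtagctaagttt
Tfrc site 1, 3′ UTR, chr16:32631218-32631247, plus strand: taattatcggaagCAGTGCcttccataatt
Tfrc site 2, 3′ UTR, chr16:32631597-32631626, plus strand: acattatcgggagCAGTGTcttccataatg
Tfrc site 3, 3′ UTR, chr16:32631662-32631691, plus strand: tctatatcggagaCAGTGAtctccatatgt
Tfrc site 4, 3′ UTR, chr16:32631709-32631738, plus strand: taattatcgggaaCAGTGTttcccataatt
Slc11a2-205, 3′ UTR, chr15:100395153-100395182, minus strand: gagccatcagagcCAGTGTgtttctatggt

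The genes with a site at the 5′ end had log2 fold changes of -0.42 (Fth1), 0.08 (Ftl1, not called) and -2.28 (Slc40a1), and differences among them were not tested. Tfrc and Slc11a2, with sites at the 3′ end, had -0.49 and -0.34. The 5 genes of the 10 without a match in these letters (Trf, Steap3, Hmox1, Aco1 and Ireb2) covered the range from -1.80 to 0.57. The sites of Tfrc lie in both Tfrc-201 and Tfrc-204.

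Another 129 genes were set in 8 lists that share a few genes. The lists cover iron and heme handling, the stress factor NRF2 with its targets, and ferroptosis control. Not all of these genes handle iron or heme. By edgeR they were more often higher than lower in 2i. Of the 118 tested, 58 were called higher and 30 lower in TKO-2i (74.6% in all), and their median log2 fold change was 0.15, against -0.46 for the 10 genes and 0.01 for all genes tested, of which 31.9% were called higher and 30.6% lower. With limma on TPM, at either pseudocount, the split was nearly even, at 41 higher and 36 lower (median 0.04), where 23.2% of all genes tested were called higher and 32.1% lower. Among uptake relatives, 6 of 14 tested were higher and 7 lower by edgeR (median -0.17, also with Steap4 at its bound), and 2 were higher and 7 lower with limma. Slc39a14, a zinc transporter that also carries iron not bound to transferrin, had 9.77, 13.6 and 11.8 TPM in TKO-2i and 33.9, 39.8 and 37.99 TPM in TKO-serum. It fell along with the transferrin route (log2 fold change -1.65, SE 0.09, edgeR adjusted p = 1.5e-06). Scara5, a receptor that can take up ferritin, went the other way, with 2.83, 3.62 and 2.88 TPM in TKO-2i and 0.969, 0.965 and 0.942 TPM in TKO-serum (log2 fold change 1.80, SE 0.09, edgeR adjusted p = 8.0e-07).

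Storage relatives, which include the iron chaperones of the Pcbp family and Ncoa4, the receptor for ferritin breakdown, had 4 of 12 tested higher and 5 lower (median -0.06). Of the genes of export and systemic control, 2 of 8 tested were higher and 5 lower (median -0.70), and limma called 1 higher. In that list hemojuvelin (Hfe2), a co-receptor in hepcidin control, had 0.989, 0.770 and 0.693 TPM in TKO-2i and 2.34, 2.33 and 1.97 TPM in TKO-serum (log2 fold change -1.31, SE 0.18, edgeR adjusted p = 0.00027). Genes of IRP control and messages with known elements had 6 of 15 tested higher and 2 lower by edgeR (median 0.03), against 4 higher and 5 lower with limma. Epas1, a hypoxia-inducible factor whose message carries an element at its 5′ end, had 2.86, 4.13 and 3.02 TPM in TKO-2i and 10.9, 12.5 and 11.2 TPM in TKO-serum (log2 fold change -1.70, SE 0.08, edgeR adjusted p = 5.2e-07).

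Genes of heme synthesis and use were mostly higher in 2i, 16 of 23 tested against 4 lower by edgeR (median 0.44). Over all genes tested, edgeR called 31.9% higher and 30.6% lower. With limma, 13 genes of this list were higher and 4 lower. Tmem14c, which moves a heme precursor within mitochondria, had 103.0, 97.5 and 105.5 TPM in TKO-2i and 52.9, 50.6 and 46.5 TPM in TKO-serum (log2 fold change 1.13, SE 0.09, edgeR adjusted p = 1.5e-05). Flvcr2 (1.66, SE 0.11, adjusted p = 3.2e-06) and the heme-binding Hebp1 (1.31, SE 0.13, adjusted p = 4.6e-05) were higher in TKO-2i and Abcg2, an exporter of porphyrins, was lower (-1.05, SE 0.07, adjusted p = 3.2e-06). Hebp1 and Abcg2 lie on chromosome 6, where the median log2 fold change of 866 tested genes was 0.41, while the medians of the chromosomes of the 10 genes lay between -0.08 and 0.05. Genes of mitochondrial iron and iron-sulfur assembly had 14 of 22 tested higher and 3 lower by edgeR (median 0.26), against 8 higher and 5 lower with limma. Of the 22, 5 lie on chromosomes 6 and 11, where the medians were 0.41 and 0.26, and all 5 were among those called higher by edgeR. Hscb, a co-chaperone of cluster assembly, rose from 16.5 ± 1.05 TPM in TKO-serum to 32.3 ± 1.10 TPM in TKO-2i (SD, n = 3; log2 fold change 1.02, SE 0.10, edgeR adjusted p = 2.8e-05).

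Hmox1 is also known as a target of the stress factor NRF2. In a list of NRF2 itself (Nfe2l2), its inhibitor Keap1 and targets other than Hmox1, 8 of 17 tested were higher in TKO-2i, Keap1 among them, and 2, Gclc (log2 fold change -0.39, SE 0.05, edgeR adjusted p = 0.00017) and Gclm (-0.32, SE 0.05, adjusted p = 0.0005), were lower (median 0.15). Nqo1, a quinone reductase, had 50.0, 47.8 and 49.2 TPM in TKO-2i and 24.7, 24.5 and 22.6 TPM in TKO-serum (log2 fold change 1.11, SE 0.07, edgeR adjusted p = 3.5e-06). In the list of ferroptosis control, which holds Tfrc, 4 of 10 were higher and 3 lower (median 0.02), and limma called 2 higher and 3 lower. Aifm2, which protects lipids from peroxidation, rose (log2 fold change 1.10, SE 0.07, edgeR adjusted p = 3.9e-06), and the lipoxygenase Alox15, on chromosome 11, fell (-2.24, SE 0.28, adjusted p = 0.00016) at no more than 1.30 TPM in any library.

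Markers of the labelled cell type were abundant in all 6 libraries. The 6 mESC markers summed to 5062, 4580 and 4573 TPM in TKO-2i and 5658, 5309 and 5420 TPM in TKO-serum, with 2 called higher and 2 lower in TKO-2i, and Dppa5a was the most abundant. Markers of cells that handle much iron were low, apart from Cd68 among the macrophage markers. The 10 erythroid markers summed to 2.39, 2.51 and 3.35 TPM in TKO-2i and 7.99, 8.47 and 9.92 TPM in TKO-serum, with 3 of 5 tested lower in TKO-2i, Epor the most abundant, and Hbb-bs and Hbb-bt at 0 in all libraries. The 8 macrophage markers summed to 24.7, 33.8 and 30.03 TPM in TKO-2i and 20.2, 23.03 and 24.7 TPM in TKO-serum, nearly all from Cd68, with 1 of 4 tested higher and 2 lower, and Ptprc and Adgre1 did not pass the filter. The 6 hepatocyte markers summed to at most 3.44 TPM in any library, with Ahsg the most abundant, 1 gene tested and lower in TKO-2i, and albumin (Alb) not passing the filter. The 8 fibroblast markers summed to 6.27, 6.98 and 6.11 TPM in TKO-2i and 7.55, 7.90 and 7.72 TPM in TKO-serum, with 1 of 5 tested higher and 3 lower and Thy1 the most abundant.

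Markers of primitive and visceral endoderm, cells that are known to express transferrin, were lower in 2i along with Trf, Steap3 and Slc40a1. The 10 markers summed to 5.18, 6.07 and 5.45 TPM in TKO-2i and 16.2, 19.3 and 21.6 TPM in TKO-serum. Of 8 tested, 6 were called lower in TKO-2i, against 30.6% of all genes tested. The other 2, Gata4 (log2 fold change -0.17, edgeR adjusted p = 0.26) and Apoa1 (-0.39, adjusted p = 0.49), were not called. Dab2 was the most abundant in TKO-serum, at 6.72 TPM on average against 0.288 TPM in TKO-2i, where Gata4 was the most abundant at 2.41 TPM, and none of the 10 was at 0 in all libraries. The erythroid markers were lower in 2i as well, with a median log2 fold change of -1.42 against -2.17 for the endoderm markers. The part of either in the lower levels of Trf, Steap3 and Slc40a1 was not tested.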

How the data were processed

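RNA-seq libraries of TKO mESCs, 3 in serum and 3 in 2i, were analysed, and groups came from the sample titles. Each library's file, as deposited, gives an estimated count and a TPM value for every transcript. The estimated counts deposited by the authors are not normalized, and reads shared between transcripts are divided among them. The deposited TPM values are scaled for length and to a fixed sum. The columns have the layout of salmon, which the sources used here do not name, and the build is mm10 per the labels. The authors' published methods give Tophat, RPKM and DEseq instead, which do not match the deposited columns. Transcripts were matched to GENCODE M21 (136100 of 136288, 99.86%) and summed per gene, and counts were rounded. Genes were filtered with filterByExpr, scaled by TMM and tested across all genes with edgeR 4.0.16 (R 4.3.3; glmQLFit, glmQLFTest, condition only, Benjamini-Hochberg). The SE is the absolute log2 fold change divided by the square root of F. Shares were compared with exact permutation tests. The edgeR and DESeq2 fits were tested on simulated data in which far fewer genes changed than were called here.

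Total counts per library lay between 38274042 and 51932739, so that 3 counts equal 0.0578 to 0.0784 CPM, counting error only. Replicates differed by more than counting noise (chi-square per gene of at least 4.78).

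The 10 genes and the gene lists were chosen with earlier results of these data known. Beside the 10 genes, the text names their paralogs, the inactivated genes, 4 further genes of the NRF2 list, and transcripts with at least 5% of a gene. Other list genes are named for an adjusted p under 0.05, a change of at least 2-fold and a mean of at least 1 TPM in a culture. Named outside these rules are Heph, Cp and Hephl1, Ncoa4 and the Pcbp family, Ftl1-ps1, and single genes of the marker lists. Alternatives were DESeq2 1.42.0, its size factors in edgeR, no filter, length-scaled TPM as counts, a floor of 10 counts in every sample, log2(TPM + 1) or log2(TPM + 0.1) in limma 3.58.1, protein-coding genes only, a replicate block, each library left out, shares of counts, CPM for levels, and ferritin pseudogenes added.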

Additional observations from a re-analysis of the deposited data

How the results depend on the processing

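Tfrc, Trf, Fth1, Slc40a1, Aco1, Steap3 and Hmox1 kept their direction and an adjusted p under 0.05 in all 15 alternatives run for each (16 for Fth1), with log2 fold changes from -0.59 to -0.39, -1.37 to -0.89, -0.52 to -0.32, -2.48 to -1.17, 0.46 to 0.59, -1.97 to -1.58 and -1.02 to -0.84 in that order. The count of the 10 genes called lower lay between 6 and 8, and the count called higher was 1, or 2 without TKO-2i replicate 2 (lowest and highest over left-out libraries 1 and 2). Slc11a2 did not pass with length-scaled TPM (log2 fold change -0.24, adjusted p = 0.070) or with limma on log2(TPM + 1) (-0.32, 0.063) or log2(TPM + 0.1) (-0.34, 0.061). Ftl1 changed sign with limma (-0.04 with both pseudocounts) and ranged from 0.01 to 0.17 over left-out libraries. Ireb2 passed with DESeq2 (-0.22), without a filter (-0.22) and with length-scaled TPM (-0.18), and ranged from -0.31 to -0.15 over left-out libraries. Low genes had smaller changes with limma on log2(TPM + 1) than on log2(TPM + 0.1), such as Tfr2 (-0.72 and -1.90) and Alox15 (-0.74 and -1.74). Apart from this effect of the pseudocount, causes were not tested.

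With limma, at either pseudocount, genes called higher were 2 of the uptake relatives (6 by edgeR), 1 of export and systemic control (2), 8 of mitochondrial iron (14) and 2 of ferroptosis control (4). Genes called lower in the IRP list (2 by edgeR) were 5 with limma and 4 with at least 10 counts in every sample or protein-coding genes only. Those of mitochondrial iron (3 by edgeR) were 5 with limma, DESeq2 size factors, at least 10 counts or protein-coding genes only.

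Whether the replicate numbers pair the samples was not settled, and the main fit had no block. Deviations of same-numbered libraries correlated with r = 0.242, 0.329 and 0.014 across genes, and 2 of the 3 numbers matched best with themselves. With a replicate block, 12539 genes were called in place of 11361, Ireb2 passed (-0.21, adjusted p = 0.0033), and genes called lower were 4 in the IRP list and 5 in that of mitochondrial iron. No other call among the 10 genes changed.

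The heavy share of ferritin differed by -3.56 points with counts in place of TPM. The difference in the Trf-201 share was -5.34 points and ranged from -18.2 to 10.3 points over left-out libraries. With CPM in place of TPM, 2 of the 10 genes (Hmox1 and Ireb2) changed places in the order of levels in each culture. Of the 10 genes, Slc40a1 (24 to 183 counts per library) and Trf (85 to 276) rested on the fewest counts, and other named genes, such as Fthl17a (3 to 22) and Heph (7 to 18), on fewer.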
